A study of Mus musculus with 4 samples.

Results

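Of the 101 regions bound by DDX5 in cultured mouse undifferentiated spermatogonia, 2 were assigned to genes that themselves encode E-box binding transcription factors, Usf2 and Mga. These are the 2 peaks whose nearest annotated transcription start site (TSS) belonged to either gene, out of 99 genes assigned a peak. DDX5 is a DEAD-box RNA helicase that also acts as a cofactor of transcription factors. Chromatin immunoprecipitation followed by sequencing (ChIP-seq) was done with an anti-DDX5 antibody on 2 independently derived wildtype lines from CBA mice, each grown on inactivated mouse embryonic fibroblast feeder cells with GDNF, bFGF and EGF, giving 2 DDX5 ChIP and 2 Input libraries. The peaks are regions common to both lines, and each carries a single score for both ChIP libraries together, so no score has a replicate error and no test between peaks was possible. The depth of the libraries is unknown from these values, and chromatin from feeder cells and from spermatogonia cannot be told apart in them.

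An E-box is the hexamer CANNTG, and its palindromic form CACGTG is the preferred site of basic helix-loop-helix leucine zipper proteins. USF2 is one of the ubiquitous upstream stimulatory factors, which bind CACGTG as homodimers or as heterodimers with USF1. MGA is a large protein with both a T-box domain and a helix-loop-helix zipper; it pairs with MAX, binds CACGTG, and is a scaffold of the noncanonical Polycomb complex PRC1.6, which keeps germline and meiotic genes silent in other cell types. The CLEAR element, the site of the lysosomal and autophagy regulator TFEB, is a CACGTG flanked by GT on its 5′ side and AC on its 3′ side.

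The Usf2 peak held no CACGTG. The 154 bases of it that lie upstream of every RefSeq start of the gene, chr7:30956952-30957105 of GRCm38.p6 (the same assembly as mm10) read on the minus strand, the strand of the gene, show what stood there instead, with CAGCTG, another E-box, in capitals.

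Usf2: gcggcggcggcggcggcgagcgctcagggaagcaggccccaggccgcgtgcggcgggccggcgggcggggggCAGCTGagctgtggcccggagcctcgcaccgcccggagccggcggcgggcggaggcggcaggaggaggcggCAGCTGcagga

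Both peaks shared a further kind of E-box, CACATG, and with it 9 bases, TCACATGAC, read on the strand of each gene. It was 1 of 3 stretches of 9 bases, the longest found, that both peaks had in common, and the 1 of these that holds an E-box. The following windows set the Usf2 copy, with these 9 bases in capitals, beside those of the 4 other peaks that held them besides Mga, in each case at the copy nearest to the peak centre.

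Usf2, chr7:30956892-30956920, minus strand: catctcctccTCACATGACcccactgttt
Atxn1, chr13:45769896-45769924, minus strand: ccgctgcctcTCACATGACcgcagtagtc
P2rx7, chr5:122648191-122648219, plus strand: atgtcctcagTCACATGACtcagtcacat
Snx8, chr5:140389227-140389255, minus strand: gcgagcgggcTCACATGACtggccgcgcg
1700012D16Rik, chr3:153312275-153312303, plus strand: accacatatgTCACATGACcacatgtctc

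The Usf2 peak covered 512 bp, chr7:30956594-30957105, and was annotated by HOMER as promoter-TSS with its centre 46 bp upstream of the start of the gene. The peak contained the whole first exon of the curated RefSeq transcript (108 bp, 21.1% of the peak), of which 62 bp were coding. A predicted RefSeq transcript started farther upstream, and its first exon filled 256 bp, 50% of the peak. Both RefSeq starts, at positions 30956803 and 30956951, were inside the peak. The peak thus spanned the promoter and the start of the transcribed region rather than upstream sequence alone. In GENCODE M21 a transcript of the antisense gene Gm4673 also started in the peak, at position 30956909 on the plus strand, and the antisense gene Gm17077 ran through it. The end of Lsr, the next gene upstream on the same strand, was 665 bp from the peak, and the start of Hamp, which encodes the iron regulatory hormone hepcidin, was 12820 bp from the peak centre.

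The Mga peak covered 697 bp, chr2:119873260-119873956, and was annotated as Intergenic, with its centre 23620 bp upstream of the start of the curated transcripts. The reference annotation placed it differently. RefSeq holds 2 curated and 17 predicted Mga transcripts, and 3 of the predicted ones began at positions 119872503 and 119872513, so that the peak centre lay 1095 bp downstream of the nearer start. All of the peak was in the first intron of these 3 models (29722 or 30014 bp long), and its near edge was 376 or 668 bp past the end of their first exon. No exon overlapped the peak. GENCODE M21 had no transcript across the peak. Among the 16 other intergenic peaks, 0 were centred within 2 kb of a RefSeq start (95% Wilson interval 0 to 19.4%), and 5 had their centre inside some RefSeq gene.

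**Figure D1:**
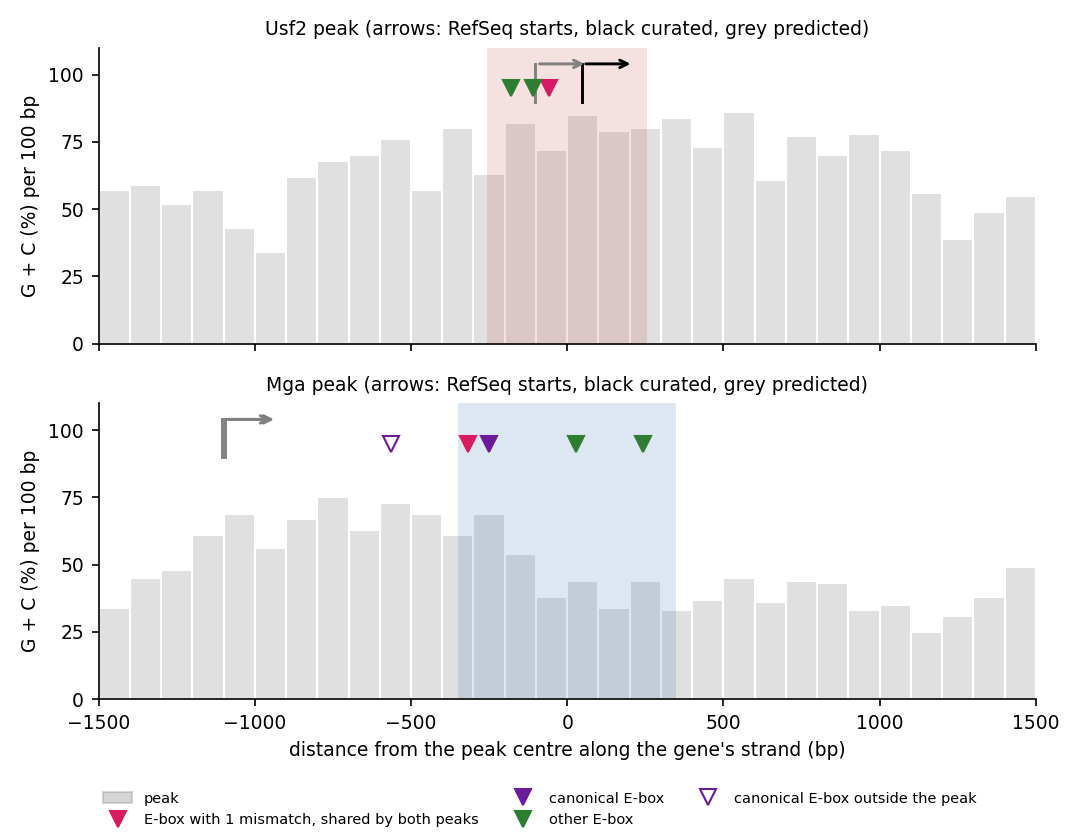
Both peaks on a scale of distance from the peak centre along the strand of the gene (x axis, bp), with the G + C content of each 100-bp bin as bars (y axis, %), the peak shaded, E-boxes as triangles and RefSeq starts as arrows. The Usf2 peak contained both starts of its gene and no canonical E-box, whereas the canonical E-box of the Mga peak lay 251.5 bp before its centre, at the edge of a GC-rich stretch that ran back to the predicted starts.

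The score of the Usf2 peak was 5.635, rank 79 of 101, and that of the Mga peak was 8.575, rank 36 of 101. The members stood at opposite ends of their classes. Usf2 had the lowest score of the 31 promoter peaks, whose other members ranged from 6.02 to 41.9 with a median of 11.9. Mga had the highest score of the 17 intergenic peaks, whose other members ranged from 4.84 to 8.57 with a median of 5.78. The promoter peaks next above Usf2 were those of Zbtb25, a zinc finger protein gene, at 6.02, and Cln3, which encodes a lysosomal membrane protein, at 7.7. The intergenic peaks next below Mga were assigned to Zfpm1, which encodes the GATA cofactor FOG1, at 8.57, and to Tmem135 at 7.25. The first place of Mga rested on a difference of 0.005 from Zfpm1 and the last place of Usf2 on one of 0.385 from Zbtb25, and with no replicate scores neither order can be set against an error.

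**Figure D2:**
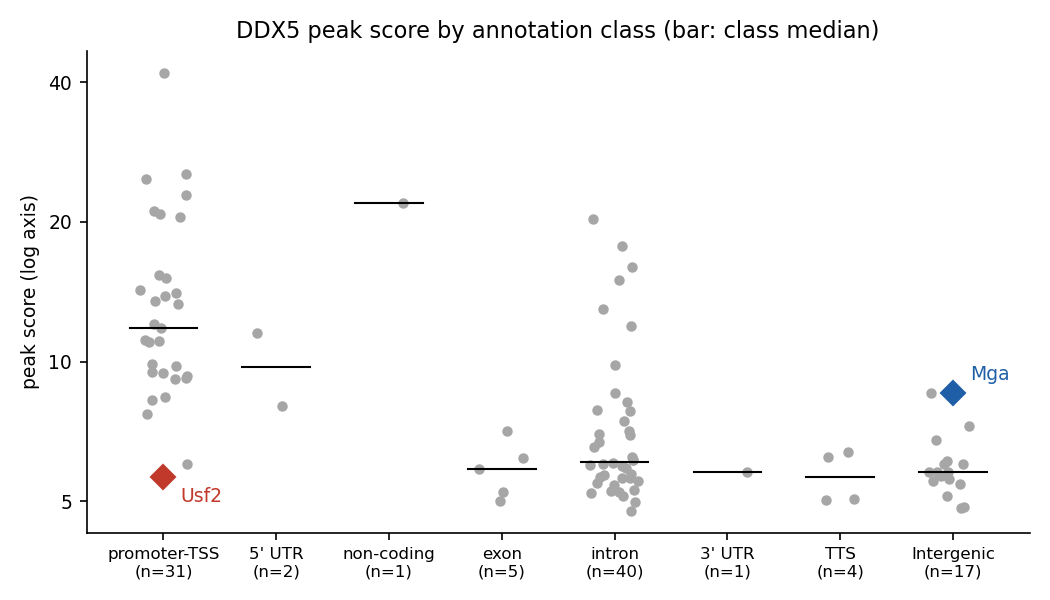
Score of every DDX5 peak (y axis, log scale) by HOMER annotation class (x axis, with the number of peaks), each point being 1 peak and each bar a class median. Usf2, at 5.635, was the lowest of the 31 promoter peaks, and Mga, at 8.575, was the highest of the 17 intergenic peaks.

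Usf2 was the promoter peak without a canonical E-box. All 30 other promoter peaks held CACGTG at least once (100%, 95% Wilson interval 88.6 to 100%), with a median of 2 sites and a maximum of 6. Nor was there a CACGTG within 250 bp on either side of the Usf2 peak. The promoter peaks closest to it in score did hold the site, with 1 in the peak of Zbtb25 and 2 in that of Cln3. For scale, CACGTG occurred in 7.15% of 32851 RefSeq promoter windows (250 bases before to 50 after a start) and in 4.87% of all genomic stretches of 512 bp. The windows are shorter than the peaks, and from 1000 bp upstream to 100 bp downstream the share was 17.4%. The Usf2 peak thus shared its lack of the site with most promoter windows, and the 30 other promoter peaks did not. The paper found the CLEAR element, which contains CACGTG, by motif analysis of these same regions. How often either occurs among the peaks is therefore a description and no test. The intervals cover counting error only.

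Mga was the converse case among intergenic peaks. Its 1 CACGTG was matched in only 1 of the 16 other intergenic peaks (6.25%, interval 1.11 to 28.3%), that of Ankrd26, where the site lay 370 bp from the peak centre. In genomic stretches of 697 bp the share was 6.57%. Of all 99 other peaks, whatever their class, 49 held CACGTG (49.5%, interval 39.9 to 59.2%). The contrast was thus with HOMER's intergenic class and not with the list as a whole. The Mga site with its flanks differed from the CLEAR element by a single substitution, A9C, counted from 1 at the 5′ end of the element. The CACATG 66 bp before it also differed from the CLEAR element by 1 substitution, G6A. The Mga peak therefore held 2 CLEAR elements with at most 1 mismatch, against 0 in each of the 16 other intergenic peaks, at least 1 in 23 of the 30 other promoter peaks (76.7%, interval 59.1 to 88.2%) and 2 or more in 13 of them. Of all 99 other peaks, 30 held at least 1 such element (30.3%) and 17 held 2 or more (17.2%). Some of these were intronic, with 6 elements in the P2rx7 peak and 8 in that of 1700012D16Rik. The Usf2 peak held none: its nearest match, around CACATG, had 2 substitutions.

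A further CACGTG lay 215 bp outside the Mga peak, between it and the predicted starts, at position 119873040 and 539.5 bp from the outermost start. The site inside the peak was 853.5 bp from the same start. Both were far from the promoter of the curated transcripts, whose RefSeq window of 300 bases held no CACGTG, no CACATG and 1 CAGCTG.

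Within the peak, the Mga site was not central. It lay 251.5 bp from the peak centre, and the CACATG 317.5 bp from it, at the end that faces the predicted starts. In the 30 other promoter peaks the CACGTG nearest to the centre was 0.5 to 164 bp away, with a median of 50.8 bp. In the peaks of other classes that held CACGTG it was 0 to 484 bp away, so the Mga site was within their range. The authors called regions with HOMER's histone parameters. The centre is the middle of a region of variable length, and where the signal was highest within it is not known here. The 2 remaining E-boxes of the Mga peak were CAGGTG, 29.5 bp from the centre, and CAAGTG, 243.5 bp from it on the far side. In the Usf2 peak, CACATG lay 57 bp upstream of the centre, 103.5 bp upstream of the curated start and 44.5 bp downstream of the predicted one, and the pair of CAGCTG sites lay 110 and 181 bp upstream of the centre.

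**Figure D3:**
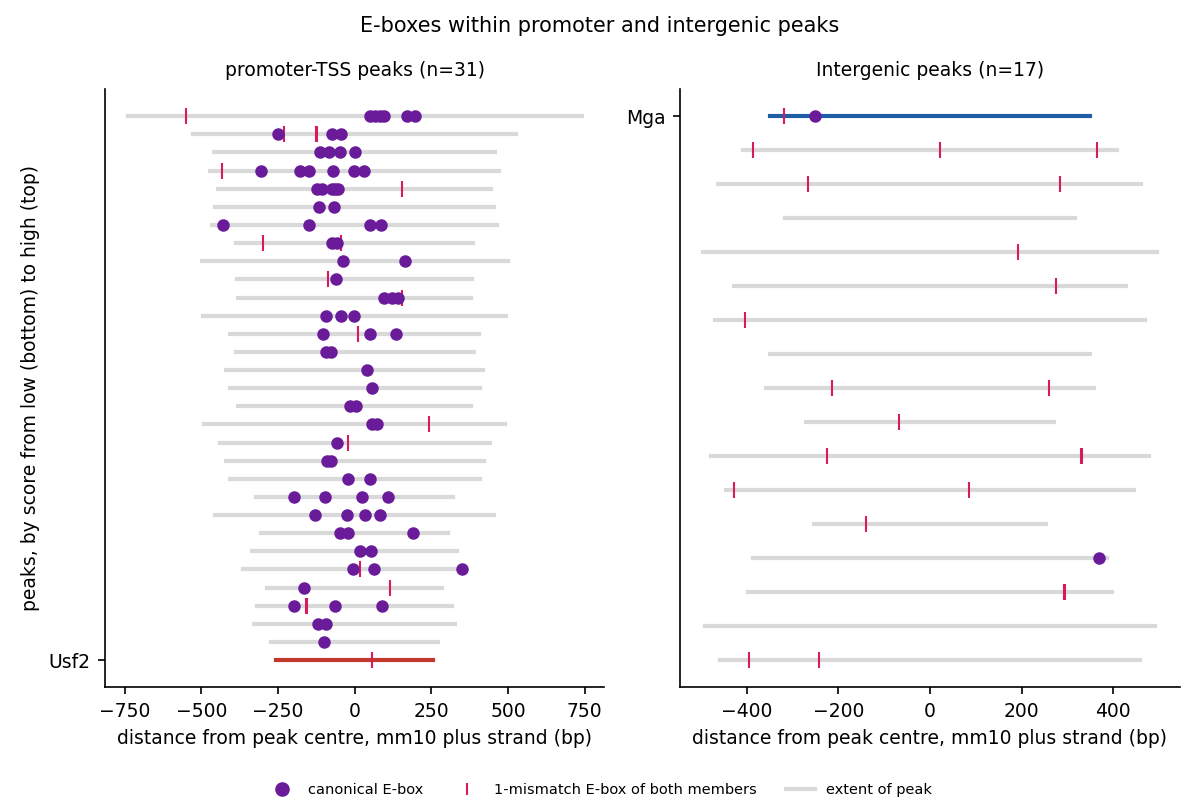
Position of each canonical E-box (circles) and each CACATG or CATGTG (ticks) relative to the peak centre (x axis, bp on the plus strand of mm10) in the 31 promoter peaks and the 17 intergenic peaks, ordered by score, with lines for the extent of each peak. Circles cluster near the centre of the other promoter peaks; the Usf2 peak at the bottom has none, and the Mga peak at the top right has 1, toward an edge.

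In total the Usf2 peak held 3 E-boxes of any kind and the Mga peak 4, against medians of 6 in the other promoter peaks and 6 in the other intergenic peaks. Per kb these were 5.86 and 5.74, below the medians of 7.11 in the other promoter peaks and 6.33 in the other intergenic peaks. The median over all 101 peaks was 6.63. The members thus differed from their classes in the kind of E-box, not in having many of them. CACATG by itself was common: it occurred, on either strand, in 13 of the 30 other promoter peaks (43.3%), in 12 of the 16 other intergenic peaks (75%), and in 34.6% and 43.7% of genomic stretches as long as the Usf2 and the Mga peak. CACATG without CACGTG, the combination found in Usf2, occurred in 30 of the other 99 peaks (30.3%), 12 of them intergenic and, since all 30 other promoter peaks held CACGTG, none in that class.

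The longer stretch TCACATGAC was less frequent. It was noticed when the sequences of both members were compared, so its presence in both is a description and no test. Beside the members it was present in 4 of the other 99 peaks (4.04%, interval 1.58 to 9.93%). The share was 0.365% in RefSeq promoter windows, and 0.553% and 0.756% in genomic stretches of 512 and 697 bp. All of these windows and stretches are shorter than the median peak of 813 bp, so the shares are not matched for length. All 4 other peaks were annotated as intronic, and their scores were 20.3 for Atxn1, 17.7 for P2rx7, 15 for Snx8 and 6.97 for 1700012D16Rik. P2rx7, which encodes an ATP-gated channel, held 6 copies and 1700012D16Rik held 8, each copy with the G before it that the Mga site also has. Atxn1 held 3 copies, 2 of them with that G, and Snx8, a sorting nexin gene, held 1 copy without it, as did Usf2. In the P2rx7 peak CACATG or CATGTG recurred at short intervals, for example at -341, -327, -314 and -300 bp from the centre. The 1700012D16Rik peak had them at -234, -224, -217 and -207 bp, among others. The copies within either of these peaks are thus not separate finds. P2rx7 had no CACGTG at all, so that it and Usf2 are the 2 peaks of these 6 that had the 9 bases and no canonical E-box. The search covered both strands.

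In base composition, too, each member was at an end of its class on 1 measure. The Usf2 peak had a G + C content of 80.5%, the highest of all 101 peaks, against 53.2 to 75.3% in the other promoter peaks. Its CpG dinucleotides were at 0.876 of the number its base content gives, close to the median of 0.828 in the other promoter peaks. It was also the shortest of the promoter peaks, the others being 544 to 1482 bp long, and 20.9% of it was soft-masked as repeat or low-complexity sequence, more than in 29 of the 30 other promoter peaks. The high G + C content was not a feature of the peak alone, since every 100-bp bin from 900 bp upstream to 1100 bp downstream of its centre had 57 to 86%. Whether the composition bears on the score was not tested.

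The Mga peak had a G + C content of 47.8%, within the range of the other intergenic peaks (31.9 to 52.8%), but its CpG ratio of 0.683 was the highest of that class, where the others reached from 0.109 to 0.422. The intronic peaks of Cfl1, Efna3 and P2rx7, closer to a start than those, had ratios of 0.663, 0.575 and 0.409. The averages of the Mga peak hid a step along it. The first 232 bases had 63.4% G + C, 22 CpG and a CpG ratio of 0.969; the middle 232 had 41.4% and 3 CpG, and the last 233 had 38.6% and 2 CpG. Both CLEAR-like sites were in the first part. The GC-rich sequence continued upstream out of the peak: from 1200 to 200 bp before the centre, a stretch that contains the predicted starts, the 10 bins had 56 to 75% G + C and 106 CpG, whereas the 15 bins from the centre onward had 25 to 49% and 8 CpG.

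**Figure D4:**
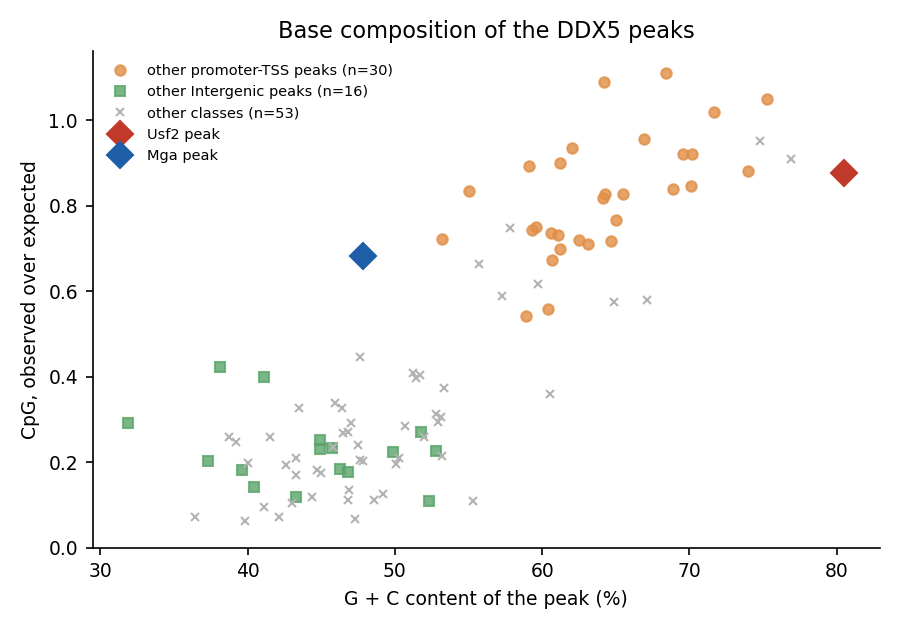
G + C content (x axis, %) and observed over expected CpG (y axis) of all 101 peaks, each point being 1 peak. The Usf2 peak, at 80.5% G + C, was to the right of all others. The Mga peak, at a CpG ratio of 0.683, lay above the 16 other intergenic peaks. It was within the range of the other promoter peaks (0.542 to 1.11) but below their median of 0.828.

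Sites of other promoter factors were looked for in both peaks as exact matches on either strand. The Usf2 peak held 6 GC boxes (GGGCGG, the site of SP1), against a median of 4 in the other promoter peaks, all 30 of which had at least 1, and it held none of the other 6 motifs: CCAAT (in 16 of the 30), the ETS core CCGGAAG (8), the NRF1 core GCATGCGC (0), the E2F core TTCCCGC (9), the T-box core GGTGTGA (3) and the CRE core TGACG (23). The Mga peak held a single TGACG, which 1 of the 16 other intergenic peaks also had and which overlaps the last bases of its CACATG, and none of the other 6. It shared the lack of a GC box and of the T-box core with most of its class, as 1 and 2 of the 16 other intergenic peaks, respectively, held them.

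Usf2 and Mga were 2 of 28 genes listed as encoding E-box factors of the USF, MiT/TFE, MYC/MAX/MXD/MLX, SREBP and circadian families, and no other of the 28 was assigned a peak. With 99 genes assigned a peak against 38657 RefSeq genes with a transcript (0.256%), having none is the usual state of a gene, and the members were chosen from the genes with a peak. Tfe3 lay on a chromosome with no peak. For the remaining 25, the distance from a RefSeq start to the nearest peak centre was 592189 to 110902015 bp, with a median of 9776377 bp, so none of them was close to a peak. The closest were Max, the dimerization partner of MGA and MYC, 592189 bp from the Zbtb25 peak; Mlxip, which encodes the glucose-responsive factor MondoA, 746321 bp from the P2rx7 peak; and Mycl, 921334 bp from the Rragc peak. Usf1, whose product pairs with USF2, was the farthest, at 110902015 bp. Tfeb, whose product binds the CLEAR element, was 2172637 bp from the Slc35b2 peak. Of the 25 listed genes with a RefSeq promoter window, 6 had CACGTG in it (Max, Mnt, Mxd4, Mlx, Mlxipl and Bhlhe41); as Mga is the 1 gene of these 25 with a peak, nothing can be read from this about E-boxes and peaks.

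Genes of the PRC1.6 complex to which MGA belongs were examined in the same way. None of the 14 listed (E2f6, Tfdp1, Tfdp2, L3mbtl2, Pcgf6, Cbx3, Hdac1, Hdac2, Wdr5, Rnf2, Ring1, Rybp, Yaf2 and Max) was assigned a peak, which at 0.256% of all genes is no result about the complex. The nearest was Tfdp1, which encodes the E2F partner DP1, with a RefSeq start 8318 bp from the centre of the peak assigned to Atp4b. HOMER placed that peak 26186 bp from the start it was assigned to, so it was closer to this RefSeq start of Tfdp1. The peak was annotated as exonic, had a score of 5.23 and held 3 E-boxes but no CACGTG. After Tfdp1 came Max and then Wdr5, at 989697 bp from the Gbgt1 peak. On their own chromosomes the members had no other peak close by: the nearest to Usf2 was the Ccdc9 peak, 14669572 bp away, and the nearest to Mga was the Rasgrp1 peak, 2326603 bp away.

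**Figure D5:**
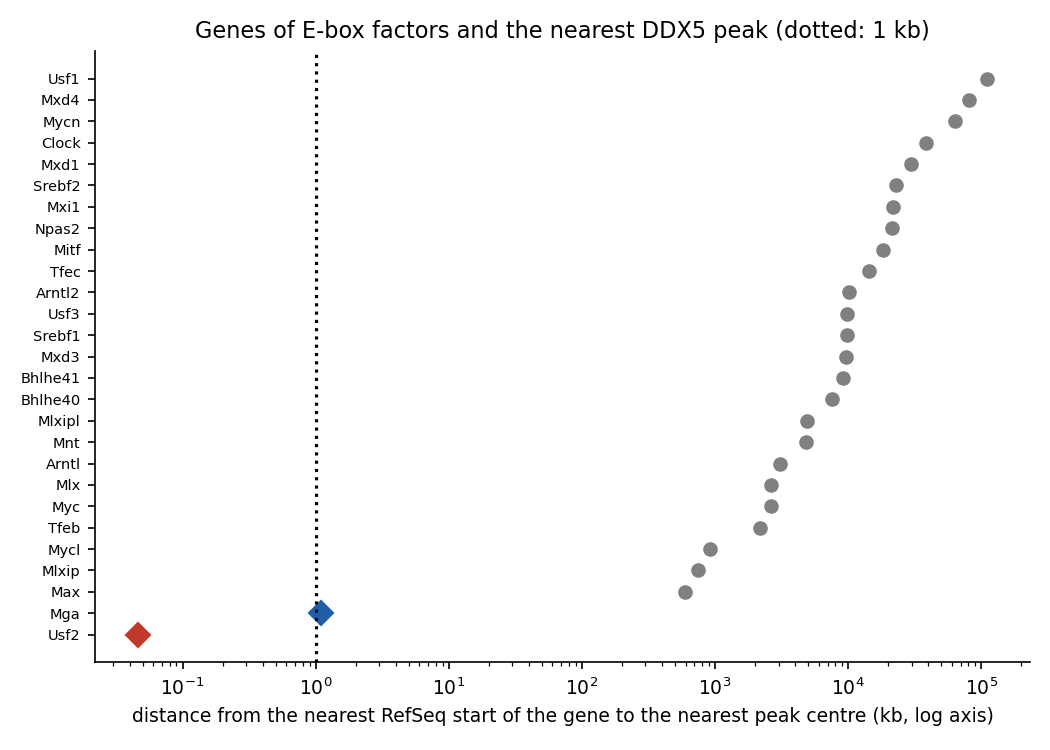
Distance from the nearest RefSeq start of each E-box factor gene to the nearest DDX5 peak centre on its chromosome (x axis, kb, log scale), for the 27 genes on chromosomes with a peak. Usf2 (46 bp) and Mga (1095 bp from a predicted start) are at the left because they were chosen as genes with a peak; of the 25 others the nearest was Max at 592189 bp.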

How the data were processed

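DDX5 ChIP-seq peaks of cultured undifferentiated spermatogonia were taken as deposited. The authors mapped single-end reads to mm10 with Bowtie2 2.2.5 and filtered them with SAMtools 1.3.1 (versions from the submitters' processing notes), found regions in each ChIP library with HOMER, and annotated those common to both lines. The deposited score is HOMER's peak score, 1 value per peak; its scaling and how the libraries were combined are not given in the sources used here. A gene without a peak is one with no region in this list.

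Members were the rows whose gene name was Usf2 or Mga. Members and gene lists were chosen with earlier results of these data known. The genes named are the members, the peaks up to 2 places from each in score within its class, list genes with a peak and the 3 nearest to one, genes overlapping the peaks, and the class exceptions for CACGTG; the genes sharing TCACATGAC were chosen after their values were seen. Lsr, Hamp, Cfl1, Efna3, Usf1, Tfeb, Tfe3, the 6 genes with CACGTG in a promoter window and the nearest peaks on each chromosome were also named after their values were seen.

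Peak sequences were read with pysam 0.24.0 from GRCm38.p6, which is the C57BL/6J reference; alleles of the CBA lines were not analysed here, and the sequence of the Mga peak is not reported here. Motifs were searched on both strands as exact matches, the CLEAR element with at most 1 mismatch, with a search tested on simulated sequences. Genomic stretches were consecutive, non-overlapping and free of unknown bases. Promoter windows came from a RefSeq table (GRCm38.p6), which matched Mga but not Usf2. Ranks and shares are descriptions; Wilson intervals (scipy 1.17.1) were at 95%. Encoded proteins and expression were not analysed here.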

Additional observations from a re-analysis of the deposited data

How the results depend on the processing

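No paired analysis was possible because each peak has 1 score for both ChIP libraries, and for the same reason neither library could be left out. Dividing the score by peak length moved Usf2 from rank 79 to rank 45 of 101 and from 31 to 30 of 31 promoter peaks, and Mga from rank 36 to 32 of 101, while Mga stayed first of the 17 intergenic peaks. With classes set by distance alone, Usf2 was at rank 36 of the 37 peaks within 1 kb of a start and Mga at rank 7 of the 64 others, so its first place holds for HOMER's intergenic class only. The central 200 bp of the Mga peak held 0 CACGTG, the peak extended by 250 bp held 2, and with 1 mismatch it held 8 sites and the Usf2 peak 4. Usf2 had 0 exact sites in all 3 windows. The share of the other promoter peaks with CACGTG was 93.3 to 100% under all 5 alternatives. That of the other intergenic peaks was 0% in the central 200 bp and among the 2 at or above the median score of the list, 93.8% with 1 mismatch, and 43.5% for all peaks centred outside every RefSeq gene, a set that includes promoter peaks. Counting only peaks centred within 1 kb of a start left 1 E-box factor gene, Usf2, since the Mga peak is 1095 bp from its nearest predicted start. Promoter windows from 1000 bp upstream to 100 bp downstream held CACGTG in 17.4% of cases. The score scale, the unknown depth and the lack of replicate values limit every rank.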
